A study of Homo sapiens with 12 samples.

Results

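The replication-dependent histone genes encode the core histones H2A, H2B, H3 and H4 and the linker histone H1 that package newly replicated DNA. Members were the protein-coding identifiers of the count table whose current symbol is H1-1 to H1-6 or starts with H2AC, H2BC, H3C or H4C. The table of 60675 identifiers held 66 of them. A total of 42 had 10 or more counts over all libraries and are reported, 20 had fewer counts, and H2AC1, H2BC1, H4C6 and H4C7 had 0 counts in every library, which allows a level of up to 0.0101 CPM over the 12 libraries pooled. The symbols H2AC18, H2AC19, H3C2 and H3C3 were not matched to an identifier and were not analysed here.

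The libraries were made from HT29, an established human colorectal adenocarcinoma cell line. Cells were kept for 24 h with a water extract of Aconitum carmichaeli Debeaux (ACD) or with vehicle, PBS with 2% DMSO. The extract was given at 20, 100 or 500 µg/mL, called the low, medium and high dose, in the same solvent. The 2% is that of the solution added to the wells, not of the culture medium. Each of the 4 groups had 3 libraries of RNA. Nothing in the labels says that the 3 came from separate cultures, so p-values measure the spread between these libraries, which may be technical. The titles and the treatment field name ACD, while a general note on reagents in the labels describes another herb, Poria cocos; the samples were grouped by their titles.

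Most histone mRNAs of this family lack introns and a poly(A) tail. Their 3′ end is cut just after a short stem-loop that the stem-loop binding protein SLBP holds, and they accumulate in S phase, when the coactivator NPAT drives their transcription. Some of these genes also make a longer, polyadenylated mRNA that reads past the stem-loop, which is known from differentiated cells and from tumour lines. In a bulk library, fewer cells in S phase and less histone RNA per cell cannot be told apart.

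The stem-loops of the 6 members that passed a test below, and of H4C14, are shown because they mark the end that separates both kinds of mRNA. Each sequence is read 5′ to 3′ on the gene's strand from the GRCh38 genome, with the stem, loop and second stem in capitals; the coordinates are those of the capitals.
H2AC6, chr6:26124669-26124684, plus strand: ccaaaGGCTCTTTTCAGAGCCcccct
H2BC9, chr6:26252055-26252070, plus strand: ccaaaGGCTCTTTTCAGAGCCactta
H2BC21, chr1:149886188-149886203, minus strand: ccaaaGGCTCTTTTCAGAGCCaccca
H3C10, chr6:27810516-27810531, plus strand: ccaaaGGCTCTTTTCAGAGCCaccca
H4C14, chr1:149833032-149833047, plus strand: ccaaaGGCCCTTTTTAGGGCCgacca
H4C15, chr1:149860769-149860784, minus strand: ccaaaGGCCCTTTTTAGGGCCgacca
H4C16, chr12:14770724-14770739, minus strand: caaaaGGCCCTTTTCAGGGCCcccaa

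A stem-loop of this form, 6 paired bases around a loop of 4, lay within 200 bases after a stop codon in 60 of the 66 members and in 0.0563% of the other protein-coding genes. It started 22 to 62 bases after the stop codon, with a median of 35. The core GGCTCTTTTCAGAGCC was shared by 36 members, among them H2AC6, H2BC9, H2BC21 and H3C10. The H4 genes had other cores, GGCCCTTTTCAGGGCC in 10 members and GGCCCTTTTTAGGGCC in 4, H4C14 and H4C15 included. Of the 42 reported members, 38 had a stem-loop, and H2AC11, H2AC15, H2BC12L and H3C6 had none of this form in that window.

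As a measure of polyadenylated forms, a member was said to have a long 3′ end where an annotated transcript runs over 200 bases past its stop codon. This held for 16 of the 42 reported members, and 15 of those 16 also had the stem-loop. By class, it held for 2 of 8 H2A, 8 of 15 H2B, 2 of 7 H3, 4 of 9 H4 and 0 of 3 H1 members. H2BC21 has a single annotated transcript, which runs 1801 bases past the stop. H2BC26, H2BC15, H2BC4 and H3C6 have longer ends of up to 4594 bases, beside a short form of 48 to 68 bases. An annotated long end does not say which form the reads came from.

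The promoters of the 4 members called at the high dose are shown next, since all 4 were called lower in the same comparison. The sequences are those of RefSeq on GRCh38.p14, from 250 bases before to 50 after the start site, on the gene's strand. Capitals mark 3 motifs searched on both strands: the octamer ATTTGCAT, a known site of H2B promoters, the CCAAT box, and TATAAA.
H2AC6, chr6:26123922-26124221, plus strand: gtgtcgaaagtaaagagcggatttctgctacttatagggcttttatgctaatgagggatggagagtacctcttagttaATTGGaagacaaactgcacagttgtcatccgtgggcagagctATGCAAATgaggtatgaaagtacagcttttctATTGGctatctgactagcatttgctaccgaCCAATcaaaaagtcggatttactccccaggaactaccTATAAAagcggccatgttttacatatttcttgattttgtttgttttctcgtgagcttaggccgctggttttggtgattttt
H2BC9, chr6:26251364-26251663, plus strand: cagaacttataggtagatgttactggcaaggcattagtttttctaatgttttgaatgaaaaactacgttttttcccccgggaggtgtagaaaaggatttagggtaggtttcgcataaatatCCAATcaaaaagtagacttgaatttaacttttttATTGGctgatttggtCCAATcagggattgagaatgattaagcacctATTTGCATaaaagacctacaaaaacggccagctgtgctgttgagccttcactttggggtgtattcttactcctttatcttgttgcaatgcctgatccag
H3C10, chr6:27809801-27810100, plus strand: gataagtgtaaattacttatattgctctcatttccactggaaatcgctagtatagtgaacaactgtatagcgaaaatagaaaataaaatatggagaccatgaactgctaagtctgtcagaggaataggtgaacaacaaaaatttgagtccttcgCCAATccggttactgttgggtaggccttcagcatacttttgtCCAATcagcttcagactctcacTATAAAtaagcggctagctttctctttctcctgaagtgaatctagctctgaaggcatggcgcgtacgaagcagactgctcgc
H4C15, chr1:149861110-149861409, minus strand: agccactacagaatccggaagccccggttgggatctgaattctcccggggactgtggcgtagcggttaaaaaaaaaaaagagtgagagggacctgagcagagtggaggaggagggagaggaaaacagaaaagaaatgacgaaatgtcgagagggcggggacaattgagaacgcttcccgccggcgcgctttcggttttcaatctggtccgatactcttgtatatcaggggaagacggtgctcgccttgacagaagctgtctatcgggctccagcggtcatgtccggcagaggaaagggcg

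The octamer was present in 11 of 14 H2A and 14 of 18 H2B promoters, against 1.824% of all 27305 promoters of this length, and in 0 of the H1, H3 and H4 promoters. CCAAT was found in 50 of 60 member promoters and in 35.56% of all promoters, and TATAAA in 40 of 60 and in 12.14%. The H4C15 window held none of the 3, and its sequence is the same as that of the H4C14 window. H4C14 was not called, and the counts of H4C14 and H4C15 are taken up together below. The H2AC6 window also spans the start site of H2BC4, which lies 219 bases away on the other strand.

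Most members lie in clusters. The large one on chromosome 6 (GRCh38, 25723397 to 27893891) held 53 of the 66, and 31 of these were reported. A second, on chromosome 1 (149782689 to 149887965), held 9, of which 7 were reported. H2AC25 and H2BC26 sit further along chromosome 1, H4C16 on chromosome 12 and H2BC12L on chromosome 21.

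Libraries held 15941255 to 33866644 estimated counts, and 632 to 1724 of these fell on members. Levels are given in CPM, counts per 1000000 after scaling for library composition. High replicate 2 was the shallowest library and stood apart from the others of its group: the SD over genes of its log2 difference from them was 0.675, against 0.271 to 0.445 for the other 11 libraries. Mitochondrial genes took 14.04% to 16.59% of counts at the high dose and 7.41% to 11.05% in the other libraries. All 11 epithelial and colonic markers were expressed, such as EPCAM at a median of 521 CPM and KRT20 at 248 CPM, with the lowest, CDX1, at 1.21 CPM. Of 10 markers of other cell types, PTPRC, CD3E, COL1A2 and ALB had a median of 0 and VIM and GFAP medians of 0.0154 and 0.226 CPM. The fibroblast marker COL1A1 (1.27 CPM), the endothelial PECAM1 (1.87 CPM), CD68 (8.42 CPM) and MBP (54.8 CPM) were detected above CDX1.

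In vehicle, reads were spread unevenly over the members. H2AC6, an H2A gene of the large chromosome 6 cluster (chr6:26124145-26139116, plus strand), was the most abundant at 10.9 ± 1.16 CPM (SD, n = 3), or 20.0% of the summed level of all members. Per kilobase of the canonical transcript, H2AC6 stood at 21.04 CPM per kb, followed by H4C15 at 13.7, H2AC25 at 10.9, H2BC12 at 8.57 and H3C6 at 4.40. The 3 vehicle libraries of H2AC6 (18.5 to 22.7 CPM per kb) did not overlap those of H4C15 (11.2 to 15.87), whereas H4C15 and H2AC25 (10.5 to 11.4) overlapped. Below H3C6, each of the next 4 members, H2BC5, H4C14, H3C8 and H2BC9, overlapped its neighbour in the order. The order is relative to the annotated length, which is 2224 bases for H2BC21 and 388 to 797 bases for the others. Counts cover all transcripts of a gene in the authors' annotation, release 84, so reads from a long 3′ end in it raise the value where the canonical transcript is short. The long 3′ ends named here are those of GENCODE 44, and which of them release 84 holds was not looked at. Annotated 3′ ends reach 1187 bases for H2AC6, 1365 for H4C15 and 1166 for H2AC25. How far this moves the order was not tested.

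**Figure D1:**
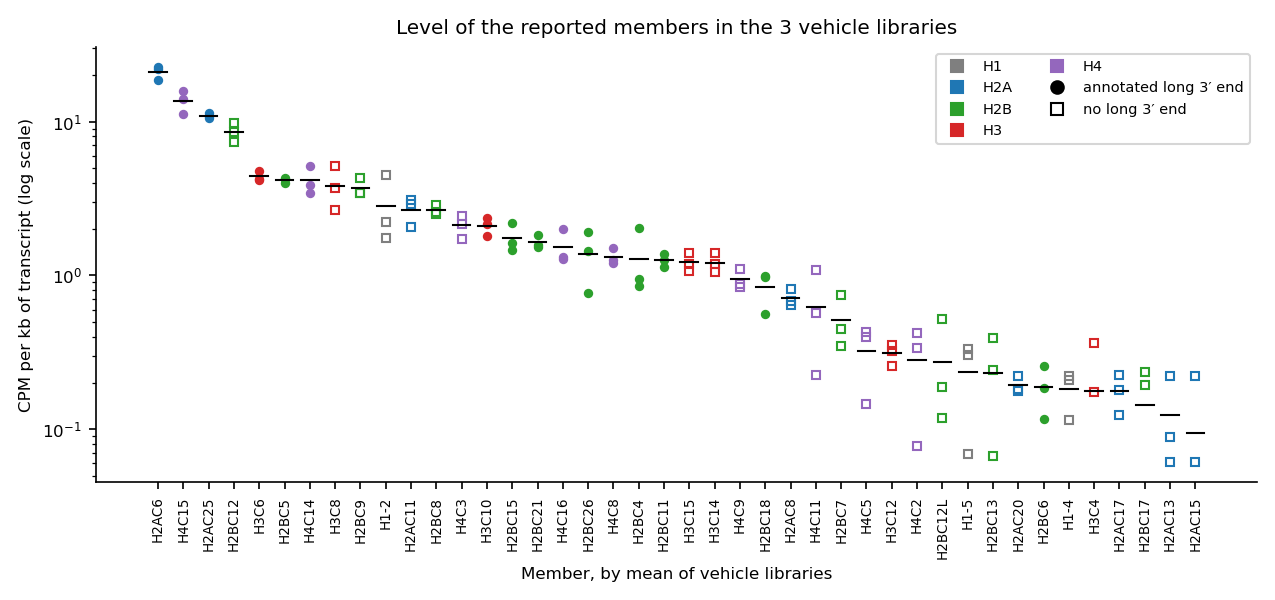
Level of the 42 reported members in the 3 vehicle libraries, in CPM per kb of the canonical transcript on a log axis, ordered by the mean (black bar). Each point is 1 library, coloured by class, filled circles for members with an annotated long 3′ end and open squares for the others; libraries at 0 are not drawn. H2AC6 stands highest at a mean of 21.04 CPM per kb, and members with a long 3′ end lie mostly in the upper part of the order. Reads from such ends, where they were counted, raise the value where the canonical transcript is short.

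The 16 reported members with a long 3′ end, with 1 further member below 10 counts, made up 67.4% of the summed member level in vehicle. Members of the H2A and H2B classes together supplied more than the other classes, H2A with 34.3% and H2B with 30.8%, against 18.3% for H4, 12.2% for H3 and 4.46% for H1. These are shares of reads, not of transcripts per gene length, and how fully RNA without a poly(A) tail was captured is not known.

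H2A and H2B genes often sit head to head and share the stretch between their start sites. There were 12 such pairs among the members, 170 to 251 bases apart, and both members were reported in 8. The partners were expressed unequally. H2AC6 stood at 21.04 CPM per kb and its partner H2BC4 at 1.28, a ratio of 16.4. H2BC15 exceeded H2AC15 by a ratio of 18.6, H2BC21 exceeded H2AC20 by 8.47, and H2AC25 exceeded H2BC26 by 7.92. In the vehicle libraries H2AC15 had 1.66, 1.09 and 0 counts and H2AC20 had 2, 3 and 2. The ratios of these pairs thus rest on few reads. The other 4 pairs had ratios of 1.23 to 3.72. Among them, H2BC13 with H2AC13 and H2AC17 with H2BC17 had too few counts for the test. All ratios depend on the canonical lengths, as the order above does. A difference between partners in their change with dose was not tested.

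The question put to the treated groups was whether these levels change with the dose of ACD. The summed level of all members was lower at each dose. It was 58.0, 52.3 and 53.9 CPM in the vehicle libraries, 47.5, 49.5 and 48.3 CPM at the low dose, 43.8, 44.4 and 42.8 CPM at the medium dose, and 33.4, 44.7 and 33.3 CPM at the high dose. Libraries of vehicle, low and medium dose did not overlap, while high replicate 2, at 44.7 CPM, lay above all 3 medium libraries. The mean was 88.5% of vehicle at the low, 79.7% at the medium and 67.9% at the high dose, or 60.9% at the high dose without replicate 2. With CPM on the plain totals, the high dose stood at 61.4% of vehicle. No test was made on this sum, because 3 against 3 libraries cannot give an exact permutation p below 0.1 and the members were chosen as a group.

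**Figure D2:**
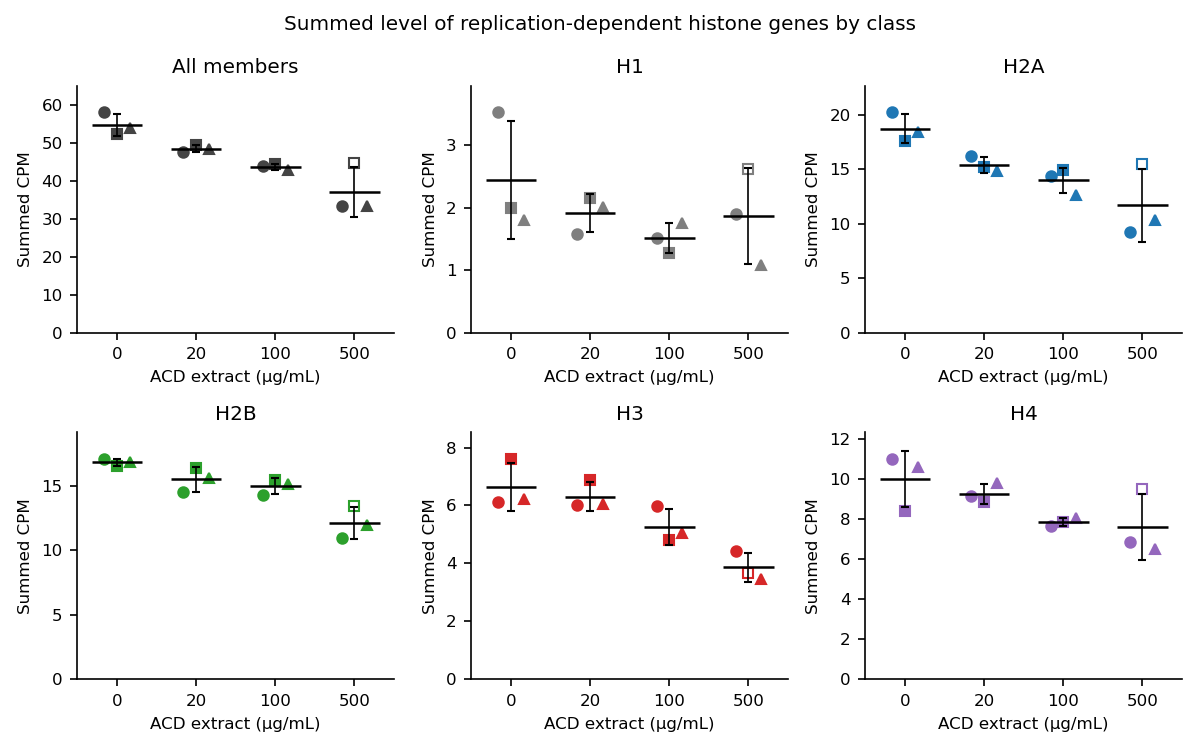
Summed CPM of all members and of each histone class against ACD dose in µg/mL (0 is vehicle), with 1 point per library (circle, square and triangle for replicates 1, 2 and 3; open square for high replicate 2) and the mean ± SD as black bars. The mean total is 54.7 CPM for vehicle and 37.1 CPM for 500 µg/mL, and the open square lies above the other 2 high-dose libraries in all panels but H3.

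By class, the high dose stood at 58.0% to 76.3% of vehicle. H3 had 6.65 ± 0.830 CPM in vehicle (SD, n = 3) and 3.86 ± 0.493 CPM at the high dose, 58.0% of vehicle, and 59.3% without high replicate 2. H2A went from 18.8 ± 1.34 to 11.7 ± 3.33 CPM, 62.4% of vehicle, and to 52.2% without high replicate 2. H2B went from 16.9 ± 0.270 to 12.1 ± 1.26 CPM, 71.9% of vehicle. For these 3 classes the high-dose libraries did not overlap those of vehicle. H4 (76.0% of vehicle) and H1 (76.3%) did overlap vehicle at the high dose. A difference between classes was not tested.

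Members with a long 3′ end summed to 36.9 ± 2.65 CPM in vehicle (SD, n = 3) and to 22.0, 30.4 and 22.5 CPM at the high dose, a mean of 67.8% of vehicle. Members without one summed to 17.9 ± 1.70 CPM in vehicle and to 11.4, 14.3 and 10.8 CPM at the high dose, 68.0% of vehicle. At the medium dose, the values were 81.9% with and 75.3% without a long 3′ end. With the 7 members known in general to be polyadenylated, H1-2, H2AC6, H2BC4, H2BC5, H2BC12, H2BC21 and H4C16, in place of the annotation, the high dose stood at 68.0% of vehicle for these and 67.8% for the rest. With protein-coding transcripts alone setting the rule, a step added after the data were seen, the values were 65.4% with and 70.6% without a long 3′ end. A difference between both sets was not tested.

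Single members were tested with edgeR in a fit across 15374 genes, and a gene was called where the Benjamini-Hochberg adjusted p lay under 0.05 and the fold change exceeded 1.5. Of the 42 reported members, 24 had enough counts for the test. The other 18 had totals of 13.0 to 96.0 counts and at most 0.447 CPM in any library, and 14 of them had a lower mean at the high dose than in vehicle. Among the 24, 4 were called lower at the high dose, H2AC6, H2BC9, H3C10 and H4C15, and 0 were called higher by edgeR or DESeq2, with 12 unadjusted p under 0.05, all of them of members below 0. Of all genes, 20.1% had such a p in this comparison. Over all 15374 genes, 258 (1.68%) were called lower and 193 higher in this comparison. The log2 fold change was below 0 for 23 of 24 members, with a median of -0.56, whereas the median of all genes tested was 0.0052. The libraries of the high dose lay below all vehicle libraries for 14 of the 24, against 11.5% of all genes tested. H3C14 and H3C15 have the same counts in every library and enter these tallies, and those of the other contrasts, as separate members.

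**Figure D3:**
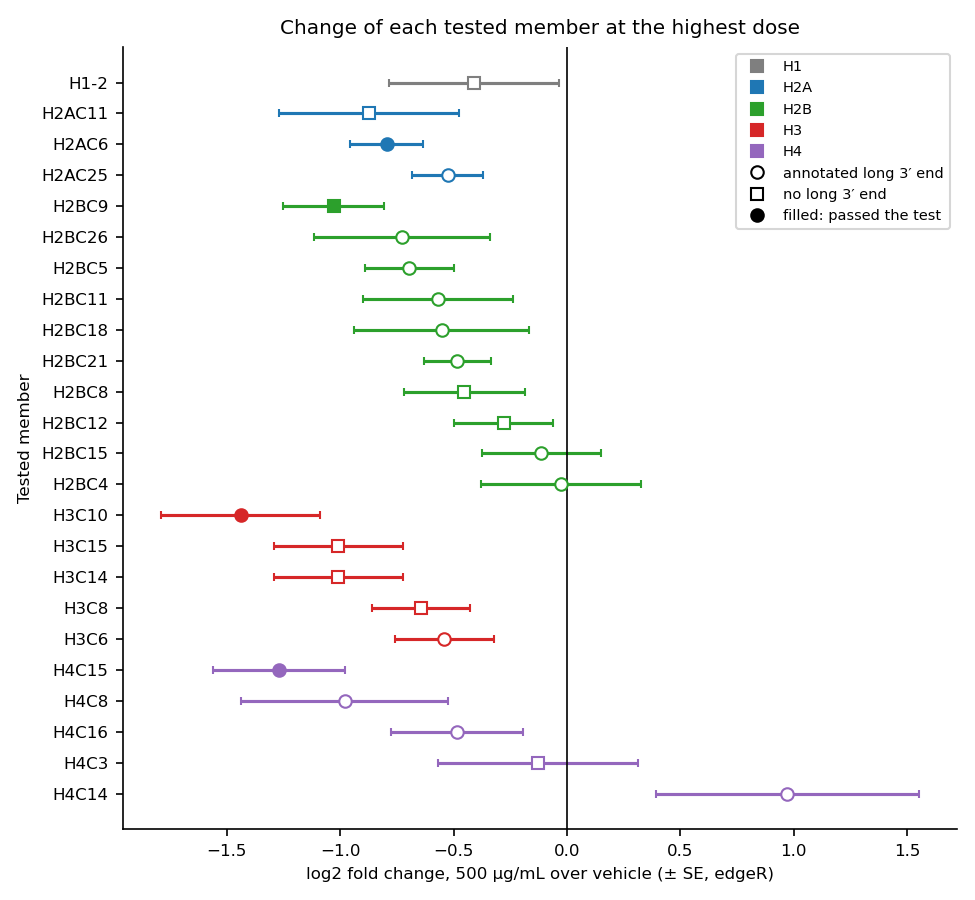
Log2 fold change of the 24 tested members at 500 µg/mL over vehicle, with the standard error of the edgeR fit, grouped and coloured by class; circles mark an annotated long 3′ end, squares none, and filled symbols passed the test. All but H4C14 lie below 0, from -1.44 for H3C10 to -0.03 for H2BC4.

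At the medium dose 0 members were called, against 0.293% of all genes called lower. The median log2 fold change was -0.26, 19 of 24 were below 0, 5 had an unadjusted p under 0.05 (11.7% of all genes did) and DESeq2 called 0 as well. Libraries did not overlap and were lower for 9 of 24 members, against 14.1% of all genes. At the low dose 0 were called, against 0.0455% of all genes, with a median of -0.16, 16 of 24 below 0, 0 called by DESeq2 and 1 unadjusted p under 0.05 (7.95% of all genes had one), that of H4C16, which was above vehicle. Here 4 of 24 members were lower without overlap, against 9.61% of all genes. The high dose was also set against the low dose, which leaves vehicle out of the contrast: 3 members were called lower, H3C10, H2BC21 and H4C16, with 0.833% of all genes called lower and a median of -0.52 for the members. In that contrast 8 of 24 were lower without overlap, against 10.6% of all genes. The 3 comparisons with vehicle share the same vehicle libraries, and both comparisons of the high dose share the high-dose libraries.

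Linker histone H1 was represented mainly by H1-2, which binds the DNA between nucleosomes. Its level was 3.30, 1.64 and 1.27 CPM in vehicle, 1.44, 2.01 and 1.97 CPM at the low dose, 1.42, 1.11 and 1.68 CPM at the medium dose and 1.53, 2.34 and 0.953 CPM at the high dose. Vehicle replicate 1 was the highest of all 12 libraries and the groups overlapped. The log2 fold change at the high dose was -0.41 ± 0.37 (SE), with an edgeR adjusted p of 0.606. Without vehicle replicate 1 it was 0.041, and without high replicate 2 it was -0.72. H1-4 had 0.165, 0.0909 and 0.176 CPM in vehicle, 0.0687, 0.0705 and 0 CPM at the low dose, 0.0918, 0.0653 and 0.0819 CPM at the medium dose and 0.135, 0.212 and 0.0308 CPM at the high dose, too few counts for a test.

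Among the H2A genes, H2AC6 had 11.8, 9.61 and 11.4 CPM in vehicle, 9.41, 8.39 and 8.46 CPM at the low dose, 7.71, 8.42 and 7.74 CPM at the medium dose, and 4.95, 8.57 and 5.72 CPM at the high dose. Every treated library lay below every vehicle library, and high replicate 2 lay above the medium libraries. It fell by 0.80 on the log2 scale at the high dose (SE 0.16, edgeR adjusted p 0.0132). The log2 fold changes at the medium and low dose, -0.45 and -0.31, had adjusted p of 0.276 and 0.667. The call at the high dose was lost without vehicle replicate 1, vehicle replicate 3 or high replicate 3, and with the compared groups fitted alone, and over 20 alternatives adjusted p ran from 1.22e-05 to 0.165.

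H2AC25, which lies beside H2BC26 on chromosome 1, had 5.83, 5.55 and 5.36 CPM in vehicle, 4.78, 4.90 and 5.01 CPM at the low dose, 4.91, 4.93 and 4.01 CPM at the medium dose and 3.20, 5.17 and 3.54 CPM at the high dose. Here too all treated libraries were below all vehicle libraries. The log2 fold change at the high dose was -0.53 ± 0.16 (SE), which missed the threshold with an edgeR adjusted p of 0.0750. Without high replicate 2 it passed. H2AC11, the remaining tested H2A gene, had a log2 fold change of -0.87 ± 0.40 with overlapping libraries, and it passed only without high replicate 2.

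The H2B class gave 10 tested members, all with a log2 fold change below 0 at the high dose, of which H2BC9 was called. H2BC9 (chr6:26251614-26252075, plus strand) has no annotated long 3′ end. It had 1.60, 1.58 and 1.98 CPM in vehicle, 1.44, 1.73 and 1.43 CPM at the low dose, 1.42, 1.18 and 0.942 CPM at the medium dose and 0.766, 0.637 and 1.02 CPM at the high dose. The high-dose libraries, with 17, 9 and 33 counts, lay below those of vehicle and of the low dose. It fell by 1.03 on the log2 scale (SE 0.22, edgeR adjusted p 0.0177), a call lost without vehicle replicate 3 or high replicate 1 and with the compared groups alone. Over 19 alternatives its adjusted p ran from 0.0113 to 0.124.

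H2BC21, known for a long polyadenylated mRNA, followed another order. It had 3.41, 3.52 and 4.09 CPM in vehicle, 3.78, 4.65 and 3.94 CPM at the low dose, 3.67, 3.79 and 4.22 CPM at the medium dose, and 2.48, 2.19 and 3.04 CPM at the high dose. Vehicle, low and medium dose overlapped and the high dose lay below all of them. Against the low dose it fell by 0.65 on the log2 scale (SE 0.15, edgeR adjusted p 0.0338), and against vehicle the log2 fold change was -0.48 ± 0.15 with an adjusted p of 0.0857. The first call was lost without vehicle replicate 2, any 1 low or medium library, high replicate 1 or high replicate 2 and with the compared groups alone, and adjusted p ran from 0.0170 to 0.229 over 20 alternatives. High replicate 2 was the lowest library for this gene, unlike for H2AC6.

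H2BC12, the most abundant H2B member by CPM, had 4.84, 4.24 and 3.65 CPM in vehicle, 3.26, 3.84 and 4.12 CPM at the low dose, 2.89, 4.28 and 3.56 CPM at the medium dose and 2.88, 5.03 and 2.92 CPM at the high dose. High replicate 2 was the highest of the 12 libraries and the groups overlapped. Its log2 fold change at the high dose was -0.28 ± 0.22 (edgeR adjusted p 0.537). It was -0.54 without high replicate 2, -0.13 without high replicate 3, -0.15 without high replicate 1 and -0.18 without vehicle replicate 1, with a fold under 1.5 in each. Of the others, H2BC5 had the smallest adjusted p at 0.0637 with a log2 fold change of -0.70. It passed with at least 10 counts in every library, without high replicate 2 and without low replicate 1. H2BC4 and H2BC15 were near 0 at -0.03 and -0.11.

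All 5 tested H3 members were lower at the high dose without overlap with vehicle, against 11.5% of all genes tested. H3C14 and H3C15 hold the same counts, so these 5 were not all separate measurements. Of the H3 members, H3C10 was called. H3C10 (chr6:27810051-27811300, plus strand) had 1.05, 1.15 and 0.879 CPM in vehicle, 1.03, 0.916 and 1.25 CPM at the low dose, 1.38, 0.522 and 0.819 CPM at the medium dose and 0.405, 0.354 and 0.369 CPM at the high dose. The 3 high-dose libraries were the lowest of all 12 and lay close together, though this rests on only 9, 5 and 12 counts. The medium libraries spread over the range of the other groups. It fell by 1.44 on the log2 scale against vehicle (SE 0.35, edgeR adjusted p 0.0329), and by 1.48 against the low dose (SE 0.35, adjusted p 0.0420). The call against vehicle was lost without any 1 vehicle library, low replicate 1, medium replicate 3, high replicate 1 or high replicate 3, and with the compared groups alone (adjusted p 0.0124 to 0.133 over 19 alternatives). The call against the low dose was lost without any 1 vehicle or low library, medium replicate 3, high replicate 1 or high replicate 3 and with the compared groups alone (adjusted p 0.0146 to 0.143).

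H3C6 had 2.31, 2.03 and 2.02 CPM in vehicle, 1.58, 2.43 and 1.75 CPM at the low dose, 2.16, 1.60 and 2.01 CPM at the medium dose and 1.76, 1.49 and 1.17 CPM at the high dose. H3C8 had 1.32, 2.55 and 1.85 CPM in vehicle, 1.99, 2.11 and 1.93 CPM at the low dose, 1.47, 1.63 and 1.35 CPM at the medium dose and 1.31, 1.203 and 1.23 CPM at the high dose. For both, the high-dose libraries were below those of vehicle, by a narrow margin for H3C8 because of vehicle replicate 1. Their log2 fold changes were -0.54 ± 0.22 and -0.64 ± 0.22 (SE), with edgeR adjusted p of 0.185 and 0.114. H3C8 passed without vehicle replicate 1.

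H3C14 and H3C15 have identical transcripts over 518 bases, and each library listed the same count for both. Added up, a step chosen after the counts were seen, the pair stood at 1.26 ± 0.179 CPM in vehicle and 0.607 ± 0.1596 CPM at the high dose (SD, n = 3). The sum fell by 1.02 on the log2 scale (SE 0.24, edgeR adjusted p 0.0303) and passed the test, where each copy alone had an adjusted p of 0.0642.

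The H4 class held the pair for which counting mattered most. H4C14 and H4C15 have identical canonical transcripts on chromosome 1 (chr1:149832657-149839767, plus strand, and chr1:149854045-149861159, minus strand), and the estimated counts of both were fractional in all 12 libraries. H4C15 had 5.56, 4.43 and 6.28 CPM in vehicle, 3.88, 4.90 and 3.40 CPM at the low dose, 3.90, 2.84 and 3.85 CPM at the medium dose and 3.15, 0.920 and 2.31 CPM at the high dose. H4C14 had 2.04, 1.36 and 1.54 CPM in vehicle, 2.06, 0.916 and 3.54 CPM at the low dose, 1.42, 2.19 and 1.60 CPM at the medium dose and 1.31, 7.01 and 1.97 CPM at the high dose. High replicate 2 was at once the lowest library for H4C15 and the highest for H4C14. In that library 88.4% of the pair's counts were given to H4C14, against 15.8% to 51.0% in the other 11.

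H4C15 alone fell by 1.27 on the log2 scale at the high dose (SE 0.29, edgeR adjusted p 0.0242), a call lost without vehicle replicate 1, vehicle replicate 3 or high replicate 3 and with the compared groups alone (adjusted p 7.39e-04 to 0.182 over 19 alternatives). H4C14 was the only tested member above 0, at 0.97 ± 0.58 (adjusted p 0.391), and without high replicate 2 its log2 fold change was 0.058. The sum of both was 7.07 ± 1.11 CPM in vehicle and 6.23 ± 0.615, 5.27 ± 0.216 and 5.55 ± 2.06 CPM in the groups of rising dose (SD, n = 3). It had a log2 fold change of -0.39 ± 0.21 with an adjusted p of 0.332, so the pair as a whole did not pass.

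H4C16, the single member on chromosome 12 and one with a known polyadenylated form, had 0.826, 0.546 and 0.527 CPM in vehicle, 1.10, 0.987 and 0.985 CPM at the low dose, 0.551, 0.685 and 0.737 CPM at the medium dose and 0.405, 0.283 and 0.554 CPM at the high dose. The low-dose libraries lay above all others, and those of the high dose held only 9, 4 and 18 counts. Against the low dose it fell by 1.21 on the log2 scale at the high dose (SE 0.27, edgeR adjusted p 0.0311), while the log2 fold changes against vehicle were 0.73 ± 0.25 at the low dose (adjusted p 0.464) and -0.48 ± 0.29 at the high dose (adjusted p 0.497). The call was lost without vehicle replicate 2, any low library, medium replicate 2, medium replicate 3 or high replicate 1, with no filter on low counts and with the compared groups alone (adjusted p 0.0270 to 0.148 over 19 alternatives). H4C3 and H4C8, the other tested H4 genes, had log2 fold changes of -0.13 and -0.98 at the high dose, with adjusted p of 0.922 and 0.258.

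**Figure D4:**
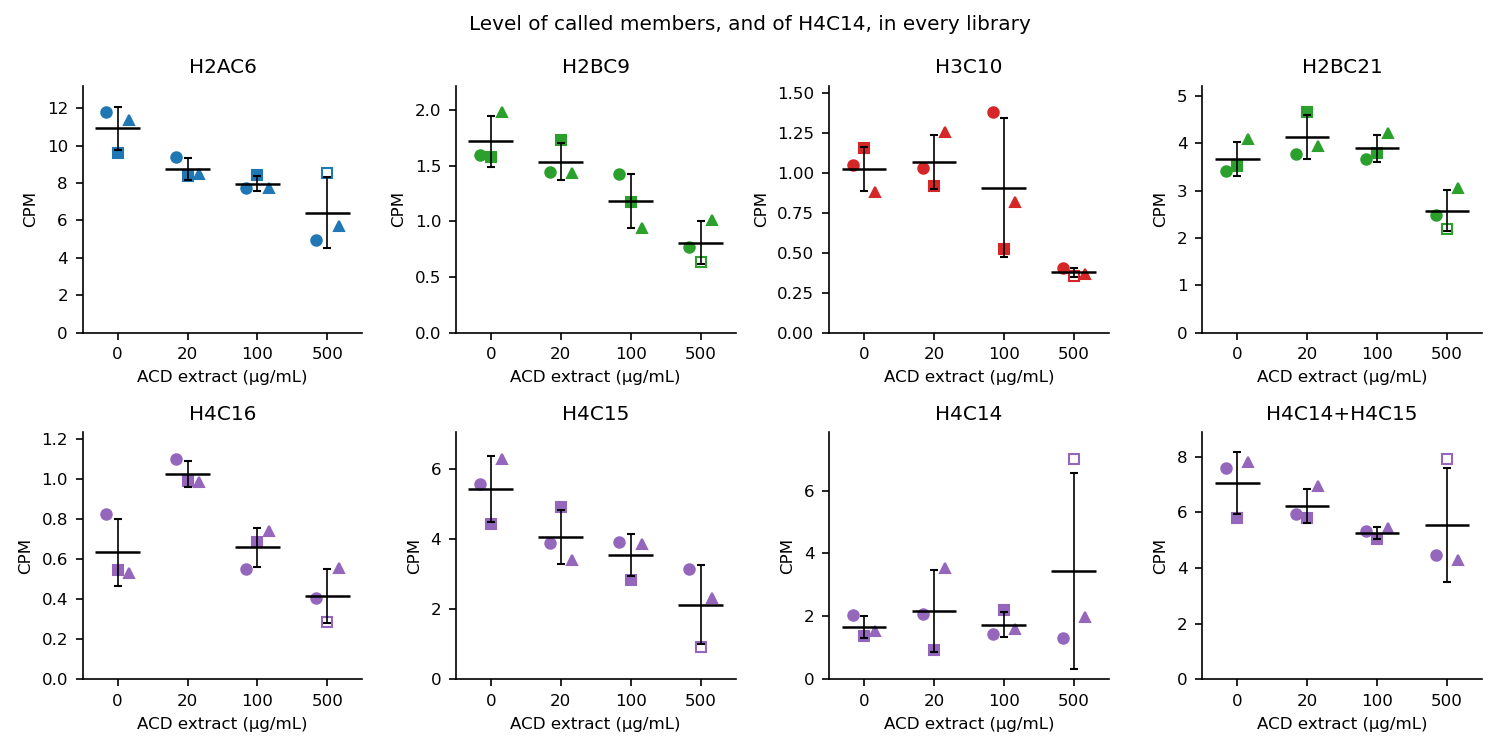
CPM of the 6 called members, of H4C14 and of the sum of H4C14 and H4C15 against ACD dose in µg/mL (0 is vehicle); points are libraries (circle, square and triangle for replicates 1, 2 and 3; open square for high replicate 2) and black bars the mean ± SD. H2AC6 goes from 10.9 to 6.41 CPM, and the open square is lowest for H4C15 and highest for H4C14.

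Genes that make, process or carry histones were looked at beside the members. Of 28 genes for histone transcription and 3′ end processing, all were tested and 0 were called at any dose by edgeR or DESeq2. At the high dose 258 of all 15374 genes were called lower and 193 higher, so 0 calls in a list of this size say little. The same holds for the chaperones, variants and S phase genes below. With the high dose, 1 had an unadjusted p under 0.05 and the median of the list was 0.07 (log2). SLBP stood at 102 ± 9.74 CPM in vehicle and 115 ± 32.2 CPM at the high dose (SD, n = 3, edgeR adjusted p 0.572). Its high-dose libraries were at 94.2, 152 and 99.3 CPM, the highest being high replicate 2. NPAT stood at 48.6 ± 3.97 and 50.7 ± 8.81 CPM (adjusted p 0.812). ZNF473, a zinc finger protein that joins the U7 snRNP in cutting histone pre-mRNA, stood at 27.8 ± 2.06 CPM in vehicle and 41.3 ± 0.775 CPM at the high dose. Its log2 fold change of 0.57 had an edgeR adjusted p of 3.91e-04 but lay under the fold of 1.5.

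The 26 histone chaperones gave 0 calls at the high dose by edgeR or DESeq2, with 4 unadjusted p under 0.05 and a median log2 fold change of 0.08. One of them, ATRX, which places the variant H3.3 at repeats, had a log2 fold change of -0.30 and an edgeR adjusted p of 0.0424. Of 14 genes listed as replication-independent variants, which cells also make outside S phase, 10 were tested. Either tool called 0 of them at the high dose, with 4 unadjusted p under 0.05 and a median of -0.10. H3-3B had a log2 fold change of 0.16 and H2AX one of -0.23, with adjusted p of 0.595 and 0.186.

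The 45 S phase genes had a median log2 fold change of 0.14 at the high dose, the opposite sign to that of the members. Of the 45, 41 were above 0, against 7840 of all 15374 genes. Their summed level was 109% of vehicle at the high dose, and 105% without high replicate 2. None was called by edgeR or DESeq2 (0 of 45), and 15 had an unadjusted p under 0.05. CDC6, which loads the replicative helicase, PRIM1, a primase subunit, and RFC3, a clamp loader subunit, had adjusted p under 0.05 in the edgeR fit with log2 fold changes of 0.30, 0.37 and 0.45. PCNA, the replication clamp, stood at 227 ± 24.0 CPM in vehicle and 261 ± 77.4 CPM at the high dose (SD, n = 3, adjusted p 0.544). These counts are of single genes, the lists were not tested as groups, and 20.1% of all genes had an unadjusted p under 0.05 in this comparison.

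**Figure D5:**
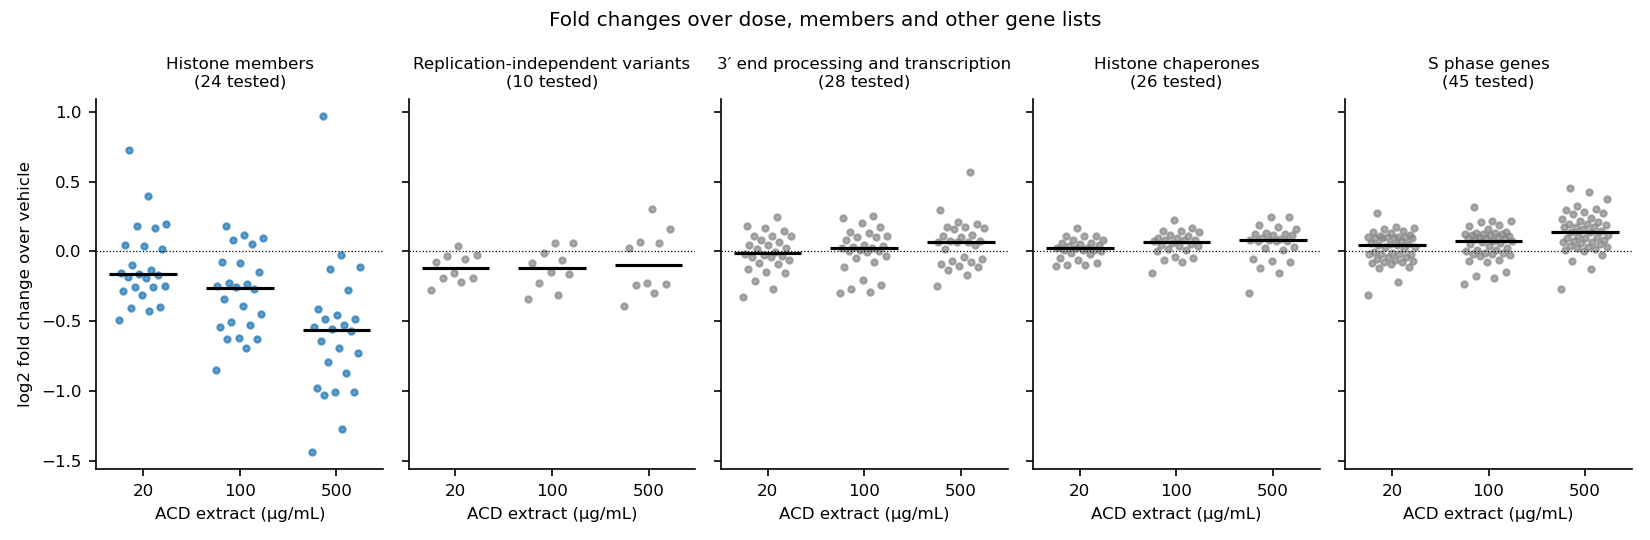
Log2 fold change over vehicle at 20, 100 and 500 µg/mL for the 24 tested members and for 4 other lists, with 1 point per gene and the median as a black bar. The members' median goes from -0.16 to -0.56, while that of the S phase genes is 0.14 at the highest dose.

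Other RNAs without a poly(A) tail were listed beside the members, most of which lack one. Of the 31 listed, 5 were tested. RN7SL2 and RN7SL1, RNA parts of the signal recognition particle, were called higher at the high dose with log2 fold changes of 4.13 and 3.58 (edgeR adjusted p 5.65e-04 and 0.00342), and RN7SL2 was also higher at the low and medium dose. The summed level of the list was 12.3 to 21.3 CPM in vehicle, 103 to 159 CPM at the low, 91.0 to 137 CPM at the medium and 81.2 to 381 CPM at the high dose, the last in high replicate 2. Without RN7SL1 and RN7SL2 the sum was 3.21 to 4.79 CPM in vehicle and 3.15 to 4.74 CPM at the high dose. The mitochondrial share was higher at the high dose alone, and RN7SL1 and RN7SL2 were higher in all 3 treated groups by their means. Their part in the members' levels was not tested. Leaving them out of the library sizes kept the 4 members called at the high dose.

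Of the 10 markers of other cell types, 4 were tested and 0 were called at the high dose by edgeR or DESeq2, with 1 unadjusted p under 0.05. The summed level of the 10 was 53.7 to 63.1 CPM in vehicle and 61.5 to 69.9 CPM at the high dose, most of it from MBP, a myelin protein gene, at a median of 54.8 CPM. CD68, a lysosomal protein used as a macrophage marker, had a log2 fold change of 0.57 at the high dose (edgeR adjusted p 0.0151). VIM, a mesenchymal marker, had at most 0.121 CPM in any library. Of the colonic markers, CEACAM5, an adhesion protein, was called higher at the high dose with a log2 fold change of 0.70. VIL1, an actin-binding protein of microvilli, and GPA33, a surface antigen, had log2 fold changes of -0.21 and -0.26 against vehicle, and of -0.26 and -0.47 against the low dose, where edgeR adjusted p was 0.0479 and 0.0358 with a fold under 1.5.

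The 5 genes whose level across the 12 libraries was most like the summed member level were MATN3, RAMP1, CD24, LINC03072 and CALML4, with Pearson's r of 0.964 to 0.950. For H2BC21 they were HERPUD2-AS1, SAMHD1, TTC6, ZNF488 and the unnamed gene ENSG00000279314, with r of 0.973 to 0.938. The 12 libraries share 4 dose groups, so these values describe the order of the groups as much as single libraries.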

How the data were processed

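RNA-seq was done on 12 HT29 libraries in 4 groups of 3. Per the labels, total RNA was made into directional mRNA libraries and read as 100 bp pairs. The submitters' processing notes name FastQC 0.11.9, Trim Galore 0.6.5, STAR 2.7.3a and RSEM 1.3.3 (the study's methods give other versions of Trim Galore and STAR) and GRCh38. The authors deposited RSEM estimated counts (expected counts per Ensembl gene, annotation release 84), which share reads between identical copies. The enrichment step and RSEM's strand setting are not given in the sources used here. How fully RNA without a poly(A) tail was captured is thus not known, and the members' levels may not stand for all their mRNA. Without the strand setting, overlapping and antisense genes may share reads.

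Here, symbols came from GENCODE 44 through the gene identifier (93.2% matched). Counts were rounded and fitted in edgeR 4.0.16 (R 4.3.3; filterByExpr, TMM, robust quasi-likelihood, all 12 libraries in 1 fit), with Benjamini-Hochberg adjustment over 15374 genes. A call needed an adjusted p under 0.05 and a fold over 1.5. CPM is scaled by TMM, and its 0 limit (3 counts) covers counting error only. DESeq2 1.42.0 and other filters, scalings and left-out libraries were alternatives. Values in every library were given for the 2 members of each class with the highest mean CPM and for each called member. Of the other lists, called genes, SLBP and NPAT were named by rule. ZNF473, ATRX, CDC6, PRIM1, RFC3, PCNA, H3-3B, H2AX, CDX1, EPCAM, KRT20, VIL1, GPA33 and the markers of other cell types were named after their values were seen. Members, lists and rules were chosen with earlier results of these data known.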

Additional observations from a re-analysis of the deposited data

How the results depend on the processing

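No member was called higher in any contrast under any alternative. The number called lower at the high dose against vehicle was 4 in the reported fit and 0 with the compared groups fitted alone. It ran from 0 to 7 when single libraries were left out, 0 without vehicle replicate 3 and 7 without high replicate 2. Over all genes, fitting the compared groups alone gave 72 called lower at the high dose, against 258 in the reported fit. It gave more at the medium dose (100 against 45) and at the low dose (28 against 7). High against low dose gave 3 members, 1 with at least 10 counts in every library, 0 with the compared groups alone, and 0 to 3 with single libraries left out. The medium dose gave 0 to 1, the 1 being H4C15 without high replicate 2. The cause of these shifts was not tested, beyond the libraries left out.

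The median log2 fold change of the tested members stayed below 0 under every alternative. At the high dose it was -0.73 with no filter on low counts, -0.51 with at least 10 counts in every library, and -0.70 to -0.56 with single libraries left out; for the medium dose that range was -0.37 to -0.22 and for the low dose -0.25 to -0.12. High against low dose gave -0.32 with no filter, -0.33 with at least 10 counts in every library, -0.45 with copies added up (chosen after seeing the data), and -0.57 to -0.35 with single libraries left out. Some uncalled values changed sign with 1 library left out, and their ranges were -0.72 to 0.041 (H1-2, high dose), -0.41 to 0.29 (H1-2, low dose), -0.57 to 0.069 (H1-2, high against low), -0.36 to 0.046 (H2BC12, high against low), -0.64 to 0.084 (H3C10, medium dose), -0.084 to 0.15 (H3C10, low dose), -0.14 to 0.33 (H3C8, low dose), -0.091 to 0.28 (H4C14, medium dose), -0.12 to 0.77 (H4C14, low dose), -0.34 to 1.10 (H4C14, high against low) and -0.0055 to 0.30 (H4C16, medium dose). The rule for the test in place of 10 counts would report 24 members. The summed level of all members at the high dose was 61.4% of vehicle with plain totals and 60.9% to 71.4% without single libraries. Of the classes, H1 moved most without single libraries. With plain totals or other 3′ end rules, members with a long end stood at 61.3% to 68.0% and the others at 61.5% to 70.6%. The sums in CPM depended on the rule, with 24.2 to 36.9 CPM in vehicle for members with a long end.

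Replicate numbers did not pair the libraries: over 18 pairs with the same number, deviations correlated between -0.264 and 0.139. With the replicate block, the 4 calls at the high dose stayed and for high against low 1 member, H2BC21, was called while H3C10 and H4C16 were not.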

Other observations

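H2BC20P, a transcribed pseudogene of the H2B family in the chromosome 1 cluster (GRCh38, chr1:149850193-149850772, minus strand) and not a member, had more reads than any member. It was named after its values were seen. Its level was 14.8 ± 1.04 CPM in vehicle and 13.4 ± 1.02, 13.5 ± 1.08 and 11.7 ± 2.00 CPM with 20, 100 and 500 µg/mL of ACD (SD, n = 3), against 10.9 CPM for H2AC6 in vehicle. The log2 fold change at the high dose was -0.33 ± 0.12 (SE), with an edgeR adjusted p of 0.152. High replicate 2 was its lowest library at 9.42 CPM. Without the strand setting, reads of this gene and of genes that overlap it cannot be told apart.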
